A study of Neurospora crassa with 8 samples.

Results

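The short lincRNA genes of *Neurospora crassa* are the entries of the deposited lincRNA list whose NC10 end minus start plus 1 does not exceed 301 bp. By this rule 296 of the 1060 listed genes were short, a share of 27.9%. The remaining 764 genes, from 351 to 3451 bp, are called the rest of the list. They were split into 527 mid-length genes below 1000 bp and 237 long genes of 1000 bp or more. Length alone chose the members from the list, and no polysome value entered this rule. The list itself had passed a filter of the authors on polysome reads, which limits the values of all its genes.

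The list belongs to a transcriptome study of the filamentous fungus with 8 samples. Its polysome sample came from wild type mycelia of strain 74-OR23-1VA (FGSC 2489), which had been kept at 25 °C in light for 1 day and then in darkness for up to 22 h. Mycelia were harvested every 2 h, cycloheximide was added before the harvest, ribosome-bound RNA was separated on sucrose gradients, and all harvests were pooled into 1 value per lincRNA gene. The strand-specific RNA-seq used for the genes next to the lincRNA genes comprised 1 library each of wild type mycelia, pretreated with 1 day of light at 25 °C and exposed to light for 30, 60 or 120 min after 24 h of darkness, and the dark library at 0 min. Every condition thus had 1 library of the same strain, and no p-value was calculated. The ranges given below with a share or a median are 95% intervals (Wilson for shares, order statistics for medians). They describe the spread over genes only and treat the genes as independent, although all genes share the same library. Polysome values in this pool cannot be assigned to a harvest time.

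Long intergenic noncoding RNAs (lincRNAs) are RNA polymerase II transcripts that lie between protein-coding genes and carry no recognizable protein-coding frame. Some regulate neighboring genes or chromatin, whereas for most no function is known. Messenger RNAs under translation carry several ribosomes and travel deep into a sucrose gradient as polysomes, and cycloheximide holds the elongating ribosomes in place. Sequencing of the polysome fraction therefore shows which transcripts sediment with ribosomes. In *Neurospora*, the best studied noncoding transcript is *qrf*, the antisense RNA of the clock gene *frq*.

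The lengths of the short genes followed the 50 bp bins in which transcription was detected. There were 85 genes of 101 bp (2 bins), 55 of 151 bp (3 bins), 39 of 201 bp (4 bins), 51 of 251 bp (5 bins) and 66 of 301 bp (6 bins). The median length of the short genes was 201 bp, against 751 bp in the rest of the list. The short genes covered 57396 of the 731760 listed bp, which is 7.84%. The medians on both sides of the length limit were equal. The 66 genes of 301 bp had a median polysome value of 0.65 with 2 genes at 0, and the 67 genes of 351 bp just outside had a median of 0.65 with 3 genes at 0.

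The deposited polysome value could be resolved into reads for the short genes. It is given on a natural log (ln) scale with 2 decimals and ran from 0 to 1.45 over the list. For 293 of the 296 short genes (99.0%, 97.1 to 99.7%) the number of bins multiplied by the value was, within the rounding of the value (± 0.005), the ln of a whole number. This is what results when ln(reads + 1) is averaged over the bins of a gene. With 1 bin more than the length gives, the rule held for 206 genes (69.6%), and with 1 bin fewer for 158 (53.4%). The rule is strictest for the 101 bp genes, since only 12.3% of the 146 possible 2-decimal values pass with 2 bins. All 85 of these genes passed, against 41 with 1 bin and 45 with 3 bins. A value of 0 passes with any number of bins. These counts therefore include 34 genes of 101 bp, and those over all short genes include 64, that pass in every case. With 6 bins 78.8% of the possible values pass, so the rule says little about the longer genes. The 3 exceptions were the genes at chr1:7311300-7311550 (0.35), chr2:435700-435950 (0.17) and chr4:2131100-2131400 (0.14). Each of them gave a whole number with 1 bin fewer, and whether they were joined from neighboring segments across a gap was not tested.

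Because of this arithmetic the values of the shortest genes stood for very few reads. The 85 genes of 101 bp took only 9 different values. A value of 0, meaning no read, was listed for 34 of them, 0.35 for 17 genes with 1 read, and 0.55 for 13 genes with 2 reads. The next class was 1.04 with 8 genes, each with 4 to 7 reads depending on how the reads divided between both bins. The highest value of this length was 1.24, in 2 genes with 5 to 11 reads. Together these 85 genes held 121 to 185 reads. Over all lengths the decoding gave a single number of reads for 129 of the 296 short genes, at most 3 reads for 140 genes and 10 or more for 43 genes. Of these 43 genes 36 had a length of 251 or 301 bp, where most possible values pass. All numbers of polysome reads given here rest on this decoding and on values that were not scaled by a total. The first read in an empty bin moved the value by 0.35 in a gene of 101 bp and by 0.12 in a gene of 301 bp.

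**Figure D1:**
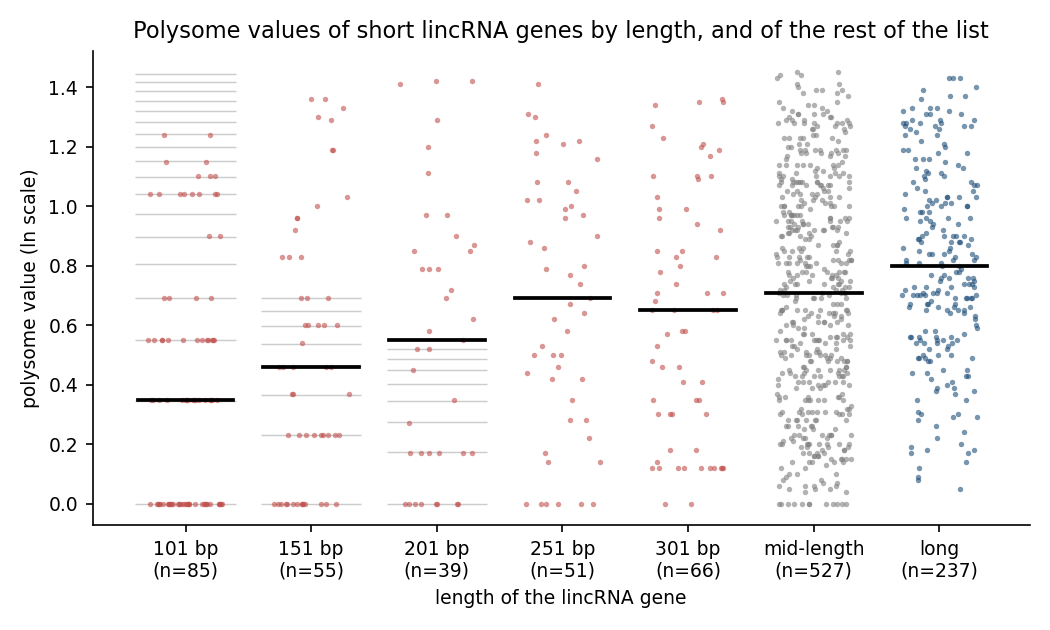
Polysome value (ln scale, vertical axis) of each lincRNA gene by length, with the short genes in red, the mid-length genes in grey and the long genes in blue; points are spread sideways at random and black bars are medians. Grey lines mark the lowest values that whole reads allow at 101, 151 and 201 bp; the 85 genes of 101 bp sit on 9 levels, and the medians are 0.35, 0.46, 0.55, 0.69 and 0.65 for the short lengths, 0.71 for mid-length and 0.80 for long genes.

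Short lincRNA genes were listed at 0 in the polysome fraction far more often than the rest of the list. A value of 0 was found for 64 of 296 short genes (21.6%, 17.3 to 26.7%), against 12 of 764 in the rest of the list (1.57%, 0.901 to 2.73%). Over the whole list the share was 7.17%. The intervals of both groups were far apart, and the short genes held 64 of the 76 zeros (84.2%). All 12 zeros of the rest were mid-length genes, a share of 2.28% (1.31 to 3.94%). None of the 237 long genes was at 0, and the limit of 3 counts that a count of 0 allows is a share of 1.27% (Wilson upper limit 1.60%).

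Within the short genes the share of zeros was lower the longer the gene. It was 40.0% at 101 bp (34 of 85, 30.2 to 50.6%), 25.5% at 151 bp (14 of 55, 15.8 to 38.3%) and 20.5% at 201 bp (8 of 39, 10.8 to 35.5%). At 251 bp it was 11.8% (6 of 51, 5.51 to 23.4%), and at 301 bp 3.03% (2 of 66, 0.835 to 10.4%). Neighboring lengths overlapped in their intervals, but 101 bp lay apart from both 251 and 301 bp. Just above the limit, 3 of 67 genes of 351 bp (4.48%) and 4 of 50 genes of 401 bp (8.00%) were at 0. A count of 0 still allows up to 3 reads over a gene, so a 0 says only that no read was detected at this depth. The number of reads a gene can collect depends on its length, and its part in the zeros was not tested.

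Genes with exactly 1 read extended the same picture. In 44 short genes the value was that of a single read, so that 108 of 296 (36.5%, 31.2 to 42.1%) had at most 1 read, against 23 of 764 in the rest of the list (3.01%, 2.01 to 4.48%). In the whole list this share was 12.4%. By length it was 60.0% at 101 bp, 41.8% at 151 bp, 35.9% at 201 bp, 15.7% at 251 bp and 18.2% at 301 bp. The last class held only 2 zeros but 10 genes with a single read. With 1 bin fewer, the exceptions at chr2:435700-435950 (0.17) and chr4:2131100-2131400 (0.14) would also stand for 1 read. They are not counted here.

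**Figure D2:**
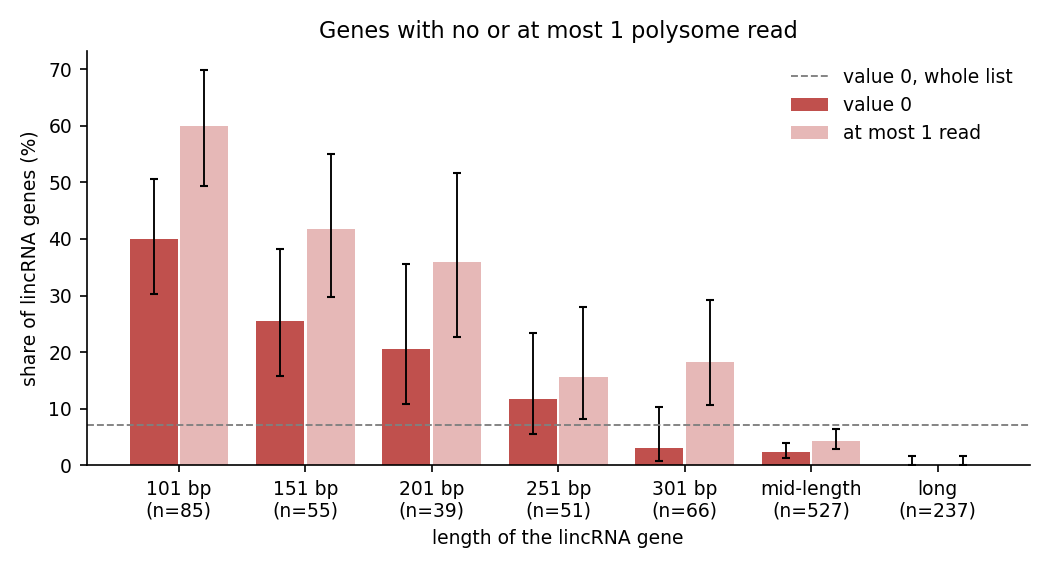
Share of lincRNA genes (%) with polysome value 0 (dark bars) and with at most 1 read (light bars) by gene length; error bars are 95% Wilson intervals and the dashed line is the share at 0 in the whole list, 7.17%. The share at 0 is 40.0% at 101 bp and 3.03% at 301 bp, 2.28% in the mid-length genes, and 0 of 237 in the long genes.

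The values of the short genes were also lower and more spread. The lowest value was 0, the quartiles were 0.14, 0.53 and 0.90, and the highest value was 1.42. In the rest of the list the lowest value was 0, the quartiles were 0.45, 0.74 and 1.03, and the highest was 1.45. The interval of the median was 0.42 to 0.57 for the short genes and 0.71 to 0.78 for the rest. These intervals lie apart, but the genes are not replicates and the difference was not tested. Taken back from the ln scale, the median stood for a geometric mean of (reads + 1) per bin, less 1, of 0.690 in the short genes. The same conversion gave 1.10 in the rest, where the decoding into reads was not checked. Part of the difference lay in the genes at 0. Among the genes above 0 the median was 0.65 in 232 short genes (quartiles 0.35 and 1.00), against 0.75 in 752 genes of the rest (quartiles 0.48 and 1.03).

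At the upper end the distributions were closer. A value of 1 or more was reached by 60 of 296 short genes (20.3%), against 216 of 764 in the rest (28.3%), with 26% in the whole list. The top of the list was set by the way it was made, since the authors first set aside intergenic transcripts with more polysome reads than the median coding gene. They later counted those without coding potential as lincRNAs too, but the list used here does not hold them. The shares given here thus describe only the part of their lincRNAs below that limit. Within 0.1 of the highest value, 1.45, there were 9 short genes and 24 of the rest. The rank correlation (Spearman) between the number of bins and the value was 0.25 over the 296 short genes and 0.01 over the 232 short genes above 0. It was 0.14 over the 764 genes of the rest. These genes share 1 library, and the number of bins also sets the smallest value above 0.

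The highest short genes were not the longest ones. The top value of 1.42 was shared by chr6:2118400-2118600 and chr6:3504500-3504700, both of 201 bp and with at least 13 reads. The first lies 1086 bp from NCU04034 and the second 162 bp from NCU05907. The value 1.41 was listed for chr1:5100900-5101150 (251 bp, at least 16 reads), which lies 564 bp from NCU03257, and for chr6:1669300-1669500 (201 bp, at least 14 reads). The chromosome 1 gene had another short lincRNA gene 500 bp away with a value of only 0.46. At the other end, the longest genes without any polysome read were chr1:8185100-8185400 and chr5:3859400-3859700, both of 301 bp. The first lies 2782 bp from NCU00509 and the second 590 bp from NCU01385. The first in chromosome order of the 6 genes of 251 bp at 0 was chr4:1245050-1245300, 376 bp from NCU07949. Zeros and top values thus both occurred near to and far from coding genes.

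Short lincRNA genes occurred on all 7 chromosomes. The share of short genes among the listed genes was 24.5% on chromosome 1 (66 of 269), 24.4% on chromosome 2 (30 of 123) and 25.7% on chromosome 3 (36 of 140). It was 37.5% on chromosome 4 (42 of 112), 28.6% on chromosome 5 (63 of 220), 27.1% on chromosome 6 (32 of 118) and 34.6% on chromosome 7 (27 of 78). Chromosome 4 was the only one whose interval, 29.1 to 46.7%, did not include the 27.9% of the whole list, and with 7 intervals examined this was not tested further. It held 14.2% of the short genes, against 9.16% of the rest of the list.

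The density of short genes on chromosome 4 was close to that of the genome, whereas the rest of the list was sparse there. Short genes occurred at 7.06 per Mb on chromosome 4 and 7.35 per Mb over all chromosomes. The rest of the list occurred there at 11.8 per Mb, against 19.0 per Mb over all chromosomes. Chromosome 7 held 9.12% of the short genes, against 6.68% of the rest. Short genes were densest on chromosome 5, with 9.79 per Mb, where the rest was also densest with 24.4 per Mb. The share of short genes at 0 was lowest on chromosome 7, with 3 of 27 (3.85 to 28.1%), and highest on chromosome 2, with 8 of 30 (14.2 to 44.4%). These intervals overlap. The medians of the polysome value ran from 0.37 on chromosome 5 (0.23 to 0.55) to 0.76 on chromosome 3 (0.55 to 0.97). These were the extremes of 7 chromosomes, and their intervals meet at 0.55.

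**Figure D3:**
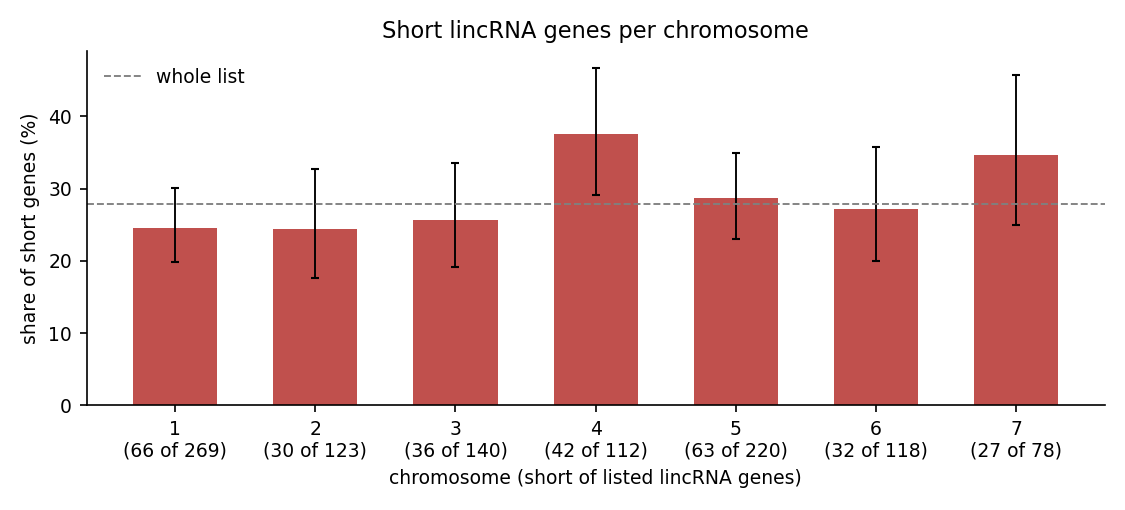
Share of short genes among the listed lincRNA genes (%) on each of the 7 chromosomes, with 95% Wilson intervals as error bars and the whole-list share of 27.9% as a dashed line. Chromosome 4 is highest with 37.5%, and its interval alone does not reach the dashed line.

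The spacing of short genes was close to that of the rest. From the end of a short gene to the start of the next listed gene the median was 20050 bp (14050 to 24750 bp, n = 290), against 19250 bp for the rest (16050 to 22700 bp, n = 763). The next listed gene followed within 1 kb for 41 short genes (14.1%, 10.6 to 18.6%), against 83 of the rest (10.9%, 8.86 to 13.3%), with 11.8% over the whole list. On either side, the nearest listed gene lay at a median of 7000 bp from short genes (5800 to 9500 bp) and of 6325 bp from the rest (5300 to 7250 bp). It was closer than 1 kb for 73 of 296 short genes (24.7%, 20.1 to 29.9%) and for 161 of 764 genes of the rest (21.1%, 18.3 to 24.1%), with 22.1% over the whole list. The intervals of all 4 quantities overlapped.

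The nearest neighbor of a short gene was short about as often as that of any listed gene. The nearest listed gene of a short gene was itself short in 83 of 296 cases (28.0%), mid-length in 146 and long in 67. For mid-length genes the nearest gene was short in 27.5% and for long genes in 28.3%, and the share over the whole list was 27.8%. Of the 73 short genes closer than 1 kb to another listed gene, 10 were at 0 (13.7%, 7.61 to 23.4%), against 54 of the other 223 (24.2%, 19.1 to 30.2%). These intervals overlap. The median value was 0.55 in the close and 0.52 in the other short genes.

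**Figure D4:**
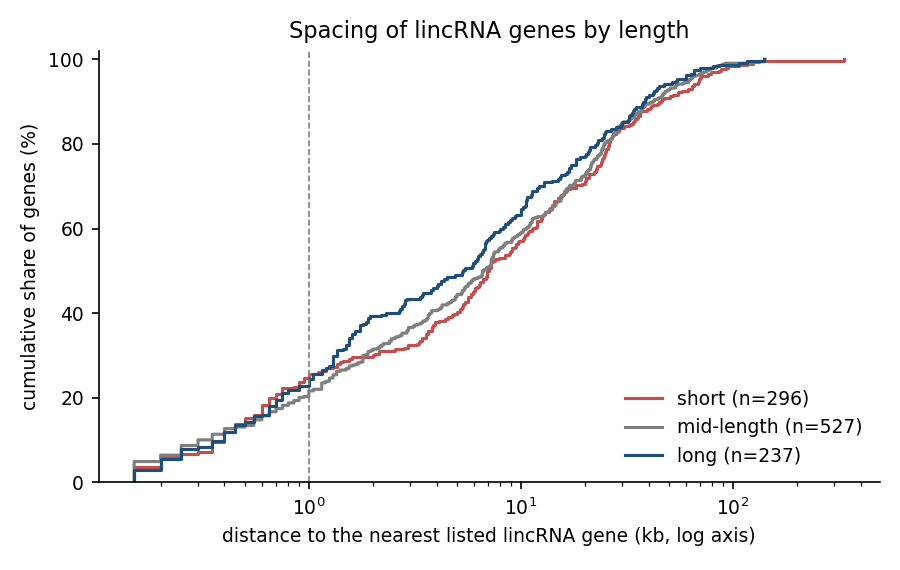
Cumulative share (%) of short (red), mid-length (grey) and long (blue) lincRNA genes against the distance to the nearest listed lincRNA gene (kb, log axis); the dashed line marks 1 kb. The curves run close together, with 24.7% of the short genes, 20.3% of the mid-length genes and 22.8% of the long genes below 1 kb.

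There were 12 pairs of neighboring short genes less than 1 kb apart. The tightest group was a trio on chromosome 5 near *tah-3*. There, chr5:2076350-2076450 (101 bp, value 0.35, 1 read) was followed after 350 bp by chr5:2076800-2077050 (251 bp, value 0.50, 4 to 11 reads) and after another 150 bp by chr5:2077200-2077300 (101 bp, value 1.04, 4 to 7 reads). The last of them had the highest value of the trio with the same length as the first. Gaps of 400 bp separated 3 further pairs. On chromosome 1, chr1:3054700-3054850 was at 0 and its neighbor chr1:3055250-3055500 at 0.69. On chromosome 3, chr3:2613650-2613750 was at 0.55 and chr3:2614150-2614350 at 0.62. On chromosome 7, chr7:2959200-2959450 was at 0.99 and chr7:2959850-2960050 at 0.27, and both overlap NCU15835. Close neighbors differed in value about as much as distant ones. The median difference in value was 0.56 in the 12 close pairs and 0.55 in the 77 pairs of adjacent short genes 1 kb or more apart.

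A larger share of the short genes than of the rest of the list overlapped a protein-coding gene of the later annotation. The authors kept transcription units at least 500 bp away from a coding gene of the NC10 annotation. In the RefSeq annotation of NC12, 54 of 296 short genes (18.2%, 14.3 to 23.0%) overlapped a protein-coding gene, against 69 of 764 in the rest (9.03%, 7.20 to 11.3%) and 11.6% over the whole list. Among the rest it was 57 mid-length genes (10.8%) and 12 long genes (5.06%). The annotation used here gives neither strand nor exons, so that sense and antisense overlap cannot be told apart and exon, intron or UTR cannot be assigned. An annotated noncoding RNA gene was overlapped by 10 short genes (3.38%, 1.85 to 6.11%), against 41 of the rest (5.37%, 3.98 to 7.20%), with 4.81% over the whole list. Within the rest these were 14 of 527 mid-length genes (2.66%, 1.59 to 4.41%), a share close to that of the short genes, and 27 of 237 long genes (11.4%).

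The overlapping short genes lay near the ends of their host genes, as did those of the rest. There were 53 different host genes for the 54 lincRNA genes, and 42 of the lincRNA genes lay wholly inside the host. These 42 had a median distance of 77 bp to the nearer end of the host (quartiles 48.3 and 203 bp), and 39 of the 42 lay less than 500 bp from it, although the median host was 4153 bp long. In the rest of the list 45 genes lay wholly inside a host. Their median distance was 83 bp, and 44 of the 45 lay less than 500 bp from the end. The filter of the authors, 500 bp from a coding gene of NC10, restricts where such overlaps can lie. Its part in these positions was not tested. Outside genes, 242 short genes had a median distance of 823 bp to the nearest coding gene, against 900.0 bp for 695 genes of the rest. The intergenic interval around them had a median of 3163 bp for the short genes and 4955 bp for the rest.

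**Figure D5:**
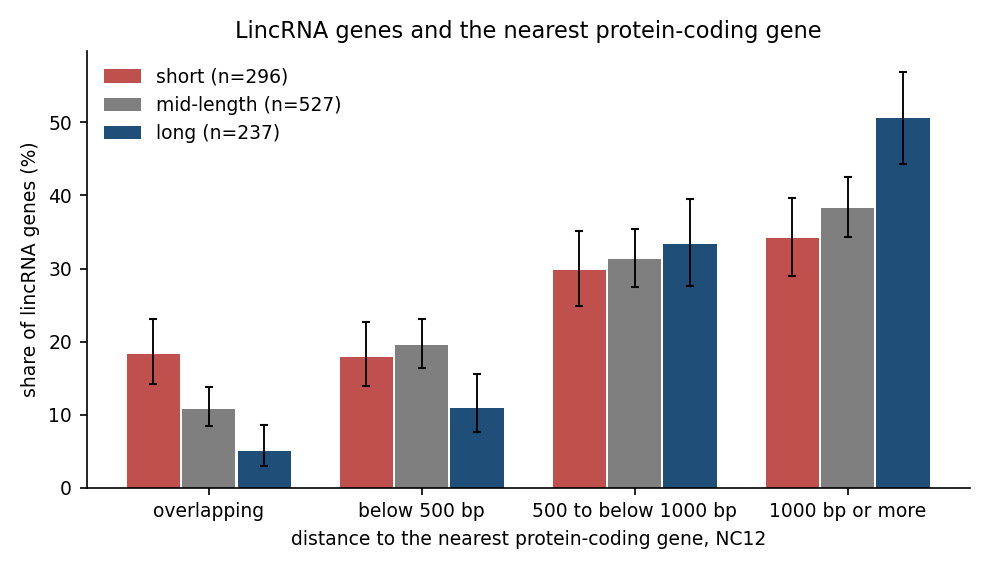
Share (%) of short, mid-length and long lincRNA genes that overlap the nearest protein-coding gene of NC12 or lie below 500 bp, 500 to below 1000 bp or 1000 bp or more from it, with 95% Wilson intervals. Overlap is found for 18.2% of the short, 10.8% of the mid-length and 5.06% of the long genes, and 1000 bp or more for 34.1%, 38.3% and 50.6%.

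Short lincRNA genes that overlapped a coding gene had low polysome values. Their median was 0.28 (0.17 to 0.46, n = 54), against 0.55 for the short genes outside coding genes (0.46 to 0.65, n = 242). A value of 1 or more was reached by 1 of the 54 overlapping genes, against 59 of the 242 others (24.4%). At 101 to 201 bp these were 0 of 38 overlapping genes (up to 9.18%), against 30 of 141 others (21.3%, 15.3 to 28.7%). At 251 or 301 bp they were 1 of 16 (6.25%, 1.11 to 28.3%), against 29 of 101 (28.7%, 20.8 to 38.2%), and these intervals overlap. Zeros differed less, with 15 of 54 (27.8%, 17.6 to 40.9%), against 49 of 242 (20.2%, 15.7 to 25.8%). The rest of the list showed the same order, with a median of 0.51 (0.42 to 0.64) in 69 overlapping genes, against 0.76 (0.73 to 0.81) in 695 others.

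Among the short genes outside coding genes those nearest to one were low as well. The median was 0.35 (0.35 to 0.58) for 53 genes at less than 500 bp, 0.69 (0.52 to 0.90) for 88 genes at 500 to below 1000 bp and 0.55 (0.46 to 0.69) for 101 genes at 1000 bp or more. A value of 1 or more occurred in 4 of 53 (7.55%), 28 of 88 (31.8%) and 27 of 101 (26.7%). The share at 0 was similar in the 3 ranges, at 22.6%, 20.5% and 18.8%. The intervals of the 3 medians overlap. For a value of 1 or more the interval below 500 bp, 2.97 to 17.9%, lay below those of both other ranges (23.0 to 42.1% and 19.1 to 36.1%). The median length was 151 bp below 500 bp and 201 bp in both other ranges, and its part was not tested. Over all 296 short genes the Spearman correlation of the distance and the value was 0.20 (Pearson 0.09). Over the 764 genes of the rest it was 0.14 (Pearson 0.15).

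Several host genes have known functions. The lincRNA gene at chr4:2153900-2154000 (101 bp, value 0.55, 2 reads) lies inside *clr-1*, which encodes a transcription factor of the cellulose response, 36 bp from its end. The one at chr6:995300-995450 (151 bp, value 0) lies inside *phy-1*, a phytochrome gene, 431 bp from its end. In *hda-1*, which encodes a histone deacetylase, chr2:3192450-3192650 (201 bp, value 0) lies 60 bp from the end. In *cel-2*, a fatty acid synthase gene, chr4:4431650-4431950 (301 bp, value 0.12, 1 read) lies 46 bp from the end. In *stk-18*, a serine/threonine kinase gene, chr5:3835350-3835450 (101 bp, value 0) lies 164 bp from the end. These 5 were picked from 10 host genes with a symbol after the values were seen. In the other 5 the lincRNA value was 0.85 in *set-3* (7 to 29 reads), 0.83 at *fwd-1* (4 to 11 reads), 0.52 in *bdp-3* (3 to 7 reads), 0.46 in *atrx* (2 to 3 reads) and 0 in *tca-5*. None of the 10 reached the upper quartile of the short genes, 0.90.

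Of the 10 short genes that overlapped an annotated noncoding RNA gene none was at 0, and their median was 0.77 (0.28 to 1.10). The highest was chr1:35000-35300 at NCU14001 (301 bp, value 1.35, at least 18 reads). Others were chr3:2159000-2159100 at NCU14111 (101 bp, value 1.10) and chr5:266700-266850 at NCU14054 (151 bp, value 1.03). At 101 bp, chr1:4802400-4802500 at NCU14020 had 1 read (value 0.35). A count of 0 of 10 allows a share of up to 30% by the same limit of 3 counts (Wilson upper limit 27.8%), so that 10 genes do not set it apart from the other short genes.

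Outside coding genes, 41 short lincRNA genes had a nearest coding gene with a symbol. A lincRNA gene 573 bp from *mak-1*, a MAP kinase gene, chr5:5920500-5920600, had a value of 1.04 (101 bp, 4 to 7 reads). The same value and length were found at chr4:4711300-4711400, 1740 bp from *xlr-1*, which encodes the regulator of xylanase genes. At chr4:5182150-5182250, 3223 bp from *cre-1*, the gene of the carbon catabolite repressor, the value was 0.69 (101 bp, 2 to 3 reads). At chr1:9023150-9023400, 859 bp from *os-1*, which encodes an osmosensing histidine kinase, it was 0.46 (251 bp, 5 to 9 reads). At chr1:1047400-1047500, 823 bp from the GTPase gene *rac-1*, no read was detected. These genes were picked from the 41 after the values were seen. Their values ran from 0 to 1.04, and higher ones occurred among the others, up to 1.34 near *cox-6*.

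To see whether light-regulated genes lie next to short lincRNA genes, the sense counts of the nearest coding genes were examined. The sense reads added up to 9804779 in the dark library and to 16587716, 21422091 and 9725970 after 30, 60 and 120 min of light. Light-induced genes needed at least 10 reads and, at 1 time point or more, over 2 times the normalized count in the dark. Of 267 counted nearest genes of short lincRNA genes, 29 were light-induced (10.9%, 7.67 to 15.2%), against 65 of 644 for the rest (10.1%, 8.00 to 12.7%), with 7.94% of all 9733 counted genes. The intervals of short and rest overlap. After 30 min 17 of the 267 were induced, after 60 min 19 and after 120 min 15, where the shares of all counted genes were 4.64%, 5.19% and 3.76%. Of 49 counted host genes 2 were induced. All 49 had at least 10 reads in the dark, against 80.2% of all counted genes. A higher count in such bulk RNA may come from more cells or from more RNA per cell, which cannot be told apart here.

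A list of 20 genes of the light response, the clock and conidiation was compared with the nearest coding genes (*frq*, *vvd*, *wc-1*, *wc-2*, *al-1*, *al-2*, *al-3*, *cry*, *phr*, *con-6*, *con-8*, *con-10*, *eas*, *ccg-1*, *fl*, *sub-1*, *csp-1*, *adv-1*, *bli-3* and *nop-1*). Of these 20, 1 was the nearest coding gene of a short lincRNA gene and 4 that of any listed lincRNA gene. Over all 9729 protein-coding genes the shares were 2.89% and 9.32%. The gene was *frq*, which encodes the core negative element of the circadian clock and is induced by light through the White Collar complex. The lincRNA gene chr7:1126250-1126450 (NC12 3128854 to 3129054, 201 bp) lies 2586 bp from *frq* and had a value of 1.20, which means at least 10 reads in the polysome fraction. The sense counts of *frq* were 1929 at 30 min, 1842 at 60 min and 960 at 120 min of light, against 254 in the dark. After normalization this was 4.58-fold at 30 min (exact 95% counting interval 4.01 to 5.24). The polysome value of this lincRNA gene lay above the upper quartile of the short genes, 0.90.

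The largest light ratios next to short lincRNA genes were found for 4 genes without a symbol and *rca-1*. NCU06427 had 139, 64 and 5 reads at 30, 60 and 120 min of light and 9 in the dark, a ratio of 9.31 at 30 min (4.76 to 20.8). NCU01347 had 2183, 4266 and 2133 reads in light and 258 in the dark, with a ratio of 8.39 at 120 min (7.37 to 9.58). NCU10291 had 1440, 2169 and 245 reads in light and 130 in the dark, with a ratio of 8.29 at 60 min (6.94 to 9.97). The highest ratios of these 3 fell at different times. For NCU01347, however, the normalized counts at 60 and 120 min were close, so its peak time is not settled. NCU01088 had 766, 1500 and 352 reads in light and 128 in the dark, with a ratio of 5.82 at 60 min (4.86 to 7.03). *rca-1*, the homolog of an *Aspergillus* regulator of conidiation, had 786, 756 and 269 reads in light and 96 in the dark, with a ratio of 4.93 at 30 min (3.99 to 6.16). Its lincRNA neighbor at chr5:3619750-3619850 (101 bp) is 864 bp away and had a single polysome read, a value of 0.35. The light response of the lincRNA genes themselves was not analysed here.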

How the data were processed

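The authors mapped reads to NC10, joined 50 bp bins with RNA-seq and RNA polymerase II signal into transcription units, merged lincRNA segments less than 100 bp apart, and deposited for each lincRNA gene its NC10 and NC12 positions and the natural log (ln) of its polysome reads, described as normalized by total count and length. The HTSeq sense counts per gene were deposited by the authors without normalization. The submitters' processing notes name Bowtie2 2.1.0, TopHat2 2.0.13 and HTSeq. Constant light, mutant and antisense files were not used here.

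The list file was read as deposited. A value was resolved into reads when a whole number k fitted ln(k) divided by the number of bins within ± 0.005. This rule was chosen after seeing the data, since the planned tolerance of 0.05 on the product is too strict for values with 2 decimals. The reads are bounded by k, because the division of reads between bins is unknown. If the values were scaled by a total, k would not be reads. Positions in NC12 were compared with the RefSeq gene table of that build, which gave the gene names and spans. Distances from an end to the next start are within a chromosome. Sense counts were divided by the total reads of each library as the study gives them. Special HTSeq lines took 21.3, 19.2, 12.1 and 20.1% of the reads at 0, 30, 60 and 120 min and were left out. Ratios carry exact (Clopper-Pearson) intervals, which compare 2 libraries and not conditions. Each library stands alone, so there is no replicate error.

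In values simulated with the same averaging, the true product was always among the whole numbers found, and the true reads lay within the bounds. This follows from how the values were simulated and checks only the calculation. It cannot show that the deposited values were made in this way. In simulated counts the 2-fold rule recovered all changed genes but also called some unchanged ones. This recovery depends on the size of the change and the counts chosen for the simulation, and checks only the calculation. How well the rule finds genes with few reads or with changes close to 2-fold was not tested. Named were the 3 highest short genes and a tie, 3 genes at 0 with the most bins, the shortest gaps, 5 flanking genes with the largest light ratios among those with at least 100 reads, and flanking genes from a list of 20 light, clock and conidiation genes. Host and neighbor genes with a known role were chosen after their values were seen. The members and lists were chosen with earlier results of these data known. Alternatives concerned the length limit, the treatment of zeros, the number of bins and tolerance, chromosome 7, close or overlapping genes, the build, the kind of distance, the annotation and the induction rule. Calculations were done with numpy 2.4.6, scipy 1.17.1 and pandas 2.3.3 under Python 3.11.15.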

Additional observations from a re-analysis of the deposited data

How the results depend on the processing

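No paired analysis was possible because each condition has 1 library and the labels share no replicate numbers. The share of short genes at 0, 21.6%, was 27.0% with at most 5 bins and 36.5% with genes of at most 1 read counted as 0, and 18.5 to 24.2% without chromosome 7, close genes or overlapping genes or with 7 bins. The median value, 0.53, was 0.65 without the genes at 0 and 0.46 to 0.55 otherwise. With the planned tolerance of 0.05 on the product, 56.1% of the values gave a whole number, against 29.4% with 1 bin more and 27.0% with 1 bin fewer, and 33.4% at a tolerance of 0.01. With the rounding interval, chosen after seeing the data, the shares were 99.0%, 69.6% with 1 bin more and 53.4% with 1 bin fewer. All these shares include the genes at 0, which pass with any number of bins. The spacing of 20050 bp was 7000 bp when the nearest gene on either side was taken, by construction a shorter distance. Overlap with a coding gene, 18.2%, was 14.2% when the whole lincRNA gene had to lie inside, which is a stricter rule. The light-induced share of nearest genes, 10.9%, was 16.5% without a minimum count and 7.12% when the interval of the ratio had to lie wholly above 2, where the shares over all counted genes were 13.8% and 4.64%, against 7.94% under the rule used. The polysome sample is 1 pool, and the values of the shortest genes rest on 0 to 11 reads. The length and the depth limit what a 0 can show, and values above 1.45 are outside the list.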
